A study of Mus musculus with 13 samples.

Results

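Insulin signalling and glucose transport genes were examined in gluteal white adipose tissue (WAT) of mice kept at 2 housing temperatures. The set holds 10 of the 34419 genes in the count table and was chosen by name, as the insulin receptor gene *Insr*, the adaptor genes *Irs1* and *Irs2*, the kinase subunit and kinase genes *Pik3r1* and *Akt2*, the transport genes *Tbc1d4*, *Trarg1*, *Slc2a4* and *Slc2a1*, and the transcription factor gene *Foxo1*. Gluteal WAT is a fat depot under the skin of the hindquarters. Male C57BL/6J mice lived at 22°C (n = 7) or at 29°C (n = 6), which is close to thermoneutral for a mouse, from birth until tissue was taken at 13 weeks of age. Mice of both groups had the hair of the posterior body removed after weaning and were housed singly with little bedding and no nest, so hair removal is shared by the groups. Each library holds the RNA of 1 mouse, and whether the mice had eaten before collection is not given in the sources used here.

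Insulin binds a receptor tyrosine kinase, which phosphorylates adaptor proteins of the IRS family. The adaptors recruit phosphoinositide 3-kinase, which leads to activation of the kinase AKT2. In fat cells AKT2 releases a brake on vesicles that carry the glucose transporter GLUT4 to the cell surface, and it keeps the transcription factor FOXO1 out of the nucleus. Most of this control acts on proteins, by phosphorylation and movement between compartments, and RNA levels do not measure it.

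All 10 genes were measured in every mouse, with between 329 and 15639 counts per library, and all 10 passed the filter on low counts. Library totals lay between 22356637 and 25245785 counts. They formed a lower cluster of 5 libraries from 22°C and a higher cluster of 8 libraries from both temperatures, of which 2 were from 22°C, so each comparison below that uses the higher cluster rests on 22°C replicates 6 and 7. Levels are in CPM, the counts of a gene relative to the scaled total of its library, folds are 22°C relative to 29°C, and P-adj is the p-value of edgeR's quasi-likelihood test with Benjamini-Hochberg adjustment over the 17779 genes tested, called below 0.1. Summed levels of 10 adipocyte markers, between 26135 and 39589 CPM, were high in every mouse. Skeletal muscle markers varied far more, with the 14 markers summing to between 775 and 83614 CPM at 22°C and between 114 and 6586 CPM at 29°C. The summed muscle level was highest in 22°C replicate 7, and the mean log2 level of these markers was highest in 22°C replicates 1 and 7, at 11.5 and 11.6.

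None of the 10 genes differed between temperatures at P-adj below 0.1 with edgeR, where 1.94% of all genes tested did (1.21% lower and 0.731% higher at 22°C). DESeq2 also called 0 of the 10, where it called 10.2% of the 16388 genes to which it gave an adjusted p. At an unadjusted p below 0.05 there were 2 of the 10, *Tbc1d4* and *Slc2a1*, beside 18.5% of all genes. The groups overlapped for each of the 10 genes, whereas 1.24% of all genes did not overlap. Of the 10 fitted log2 fold changes, 4 were above and 6 were below 0, with a median of -0.07, against 0.01 over all genes. In tissue RNA, fewer cells of a type and less RNA per cell cannot be told apart.

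**Figure D1:**
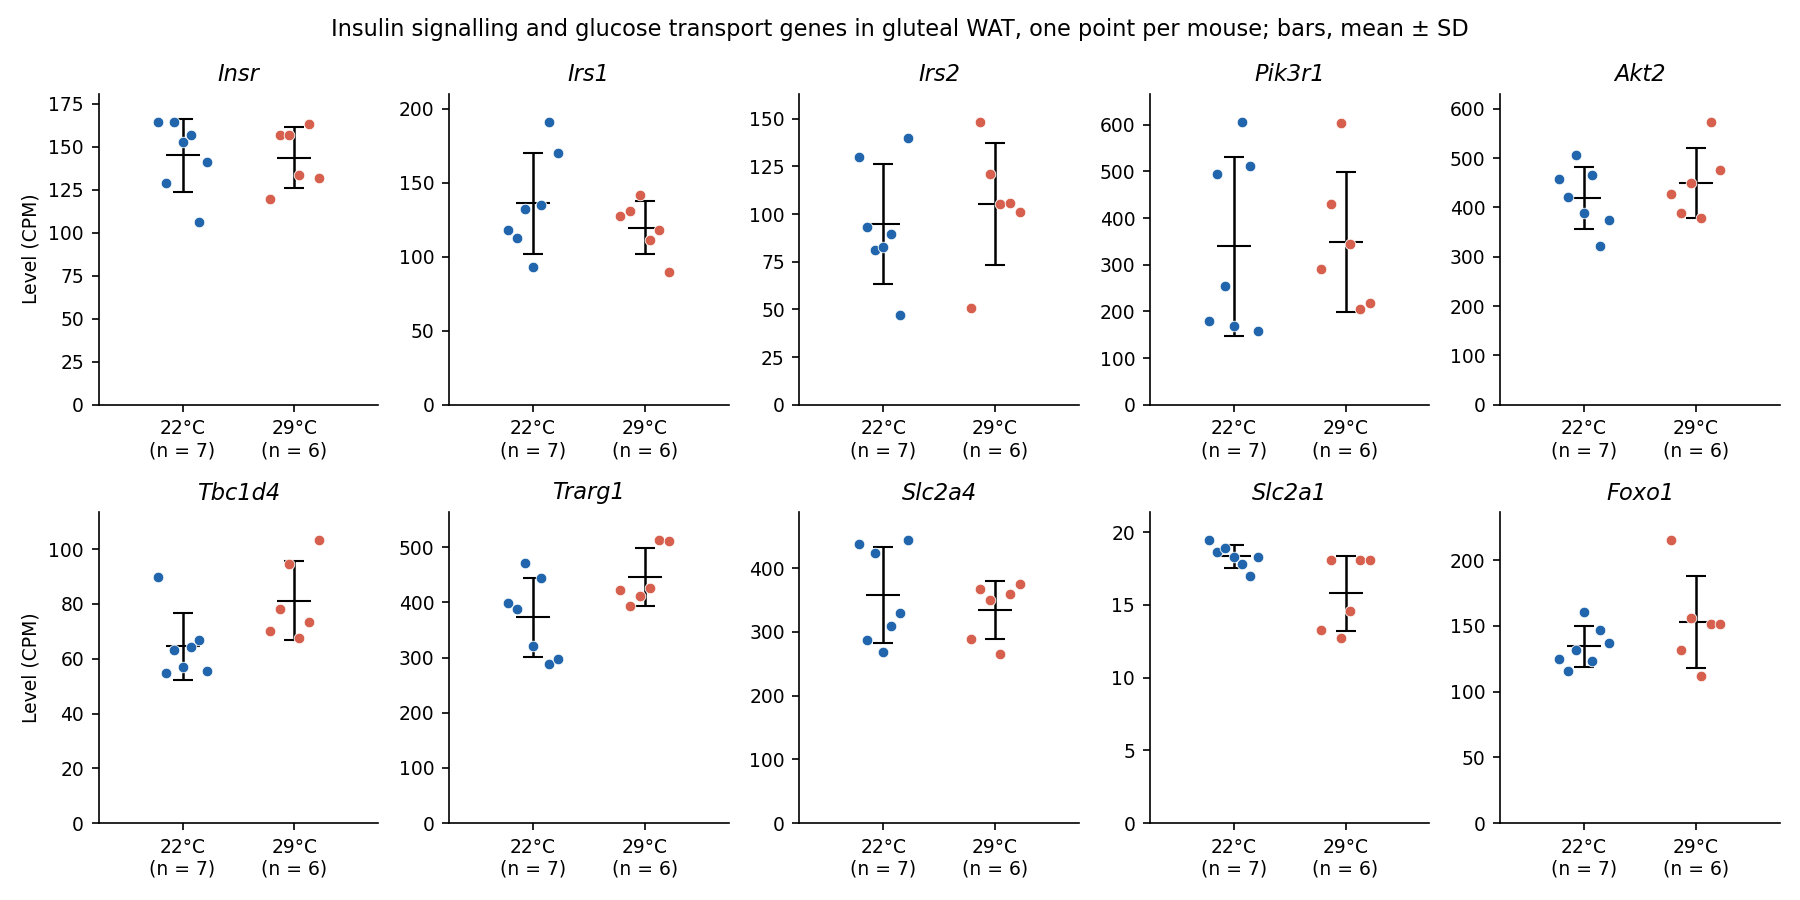
Level in CPM (y axis, starting at 0) of each of the 10 genes in each mouse at 22°C (blue, n = 7) and 29°C (red, n = 6), with bars for mean ± SD. Points of the 2 groups overlap in every panel, and *Pik3r1* spreads from 158 to 606 CPM at 22°C.

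Levels per transcript length, in TPM (counts divided by exon length and scaled to the same total in each library) over all 13 mice, spanned a wide range between genes. *Trarg1* at 334 ± 66.8 TPM (SD, n = 13) and *Slc2a4* at 267 ± 34.2 TPM were the most abundant and lay close together, with *Trarg1* above *Slc2a4* in 10 of the 13 mice. *Akt2* at 164 ± 27.7 TPM was below *Slc2a4* in all 13 mice, and *Pik3r1* followed at 94.2 ± 49.2 TPM. *Foxo1* at 44.7 ± 9.57 TPM, *Irs2* at 42.3 ± 12.7 TPM and *Irs1* at 37.9 ± 8.41 TPM did not differ beyond their spread, since *Foxo1* was above *Irs2* in 7 mice and *Irs2* above *Irs1* in 9. The same was true of *Insr* at 28.4 ± 4.27 TPM and *Tbc1d4* at 25.4 ± 5.43 TPM, with *Insr* higher in 9 mice. *Slc2a1* was the least abundant, at 13.2 ± 1.60 TPM, below *Tbc1d4* in every mouse and without overlap of their ranges. Lengths are of the merged annotated exons of a gene, so a gene with long and rarely used exons appears lower in TPM than it is.

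The receptor and adaptor genes of the set overlapped in range between temperatures and none was called, which does not show that their levels were equal. *Insr* (ENSMUSG00000005534.11), which encodes the insulin receptor, ranged from 106 to 165 CPM (median 153) among the 22°C mice and between 120 and 163 CPM (median 145) among the 29°C mice. The ranges nearly coincided, and the fold of 1.01 had a 95% confidence interval from 0.86 to 1.19 (edgeR P-adj = 0.962). Within the libraries with higher totals the log2 fold change of *Insr* was -0.22 (edgeR P-adj = 0.607).

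*Irs1* (ENSMUSG00000055980.3) and *Irs2* (ENSMUSG00000038894.8) encode the main IRS adaptors of metabolic tissues, and *Irs2* is a known target that FOXO1 activates and insulin lowers. *Irs1* ranged from 93.0 to 191 CPM (median 132) among the 22°C mice and between 89.5 and 141 CPM (median 123) among the 29°C mice. Its 2 highest mice were 22°C replicates 6 and 7, and the other 5 mice at 22°C lay among those at 29°C. The log2 fold change of *Irs1* was 0.18 (SE 0.16; edgeR P-adj = 0.568), 0.08 without 22°C replicate 6, and 0.59 within the libraries with higher totals (P-adj from 0.224 to 0.797 over all alternatives, edgeR). *Irs2* ranged from 47.1 to 140 CPM (median 89.7) among the 22°C mice and between 50.7 and 148 CPM (median 106) among the 29°C mice. In each group 1 mouse stood low, 22°C replicate 6 and 29°C replicate 1, and the other 11 mice were between 80.9 and 148 CPM. The log2 fold change of *Irs2* was -0.15 (SE 0.25; edgeR P-adj = 0.784). It moved between -0.031 (without 29°C replicate 2) and -0.30 (without 29°C replicate 1) with a mouse left out, and was -0.42 without 22°C replicates 1 and 7 and -0.40 with the adipocyte markers as a covariate. *Irs2* varied between mice of a group more than 84.6% of all genes tested, with a within-group SD of 0.52 on the log2 scale. Both genes share exon sequence with a gene on the opposite strand, *Gm9747* with counts equal to 54.2% of those of *Irs1* and *9530052E02Rik* with 3.45% of those of *Irs2*, and the strand setting of the counting is not given in the sources used here, so the reads of such partners cannot be told apart.

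*Pik3r1* (ENSMUSG00000041417.16), which encodes a regulatory subunit of phosphoinositide 3-kinase, was the most variable of the 10 genes. It ranged from 158 to 606 CPM (median 255) among the 22°C mice and between 206 and 605 CPM (median 318) among the 29°C mice. At 22°C replicates 2, 5 and 6 were between 494 and 606 CPM, and the other 4 mice were between 158 and 255 CPM. The highest mouse was 3.83-fold above the lowest at 22°C and 2.94-fold at 29°C, and the within-group SD of 0.74 on the log2 scale was above that of 92.9% of all genes tested. Mean levels were 339 ± 191 CPM (SD, n = 7) and 349 ± 151 CPM (SD, n = 6), a fold of 0.97 with a 95% confidence interval from 0.56 to 1.70 (edgeR P-adj = 0.968). That interval holds both lower and higher folds, so these mice do not settle the direction. Its catalytic partner gene *Pik3ca* ranged only from 66.3 to 93.1 CPM among the 22°C mice and between 72.3 and 82.2 CPM among the 29°C mice.

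*Akt2* (ENSMUSG00000004056.16) is the AKT isoform that serves glucose uptake in fat. Its mean was 419 ± 62.9 CPM (SD, n = 7) in the 22°C mice and 449 ± 71.2 CPM (SD, n = 6) in the 29°C mice. The ranges of 321 to 506 CPM and 379 to 574 CPM overlapped, and the fold of 0.93 had a 95% confidence interval from 0.78 to 1.12 (edgeR P-adj = 0.708). The log2 fold change of -0.10 became -0.38 within the libraries with higher totals (edgeR P-adj = 0.409) and 0.01 with the adipocyte score, the mean log2 CPM of the adipocyte markers, as a covariate. *Akt1*, the more widely expressed isoform, averaged 144 ± 15.1 CPM in the 22°C mice and 143 ± 6.09 CPM in the 29°C mice.

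*Tbc1d4* (ENSMUSG00000033083.17) showed the largest fitted difference of the 10 genes and the smallest p. Its protein, also called AS160, is the GTPase-activating protein that holds GLUT4 vesicles inside the cell until AKT phosphorylates it. Levels ranged from 54.7 to 89.7 CPM (median 63.0) among the 22°C mice and between 67.6 and 103 CPM (median 75.6) among the 29°C mice. At 22°C 6 of the 7 mice were below every mouse at 29°C, and the exception was replicate 1, at 89.7 CPM. Mean levels were 64.5 ± 12.1 CPM (SD, n = 7) and 81.1 ± 14.4 CPM (SD, n = 6). The log2 fold change of -0.33 (SE 0.13), a fold of 0.79 with a 95% confidence interval from 0.65 to 0.97, had an unadjusted p of 0.0240 and did not pass over all genes (edgeR P-adj = 0.209). Without 22°C replicate 1 it was -0.43 (edgeR P-adj = 0.131), and over all alternatives P-adj was between 0.131 and 0.543. It was -0.41 within the libraries with higher totals (edgeR P-adj = 0.386) and -0.25 with the muscle score, the mean log2 CPM of the muscle markers, as a covariate (edgeR P-adj = 0.543).

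*Trarg1* (ENSMUSG00000046275.3), which encodes a regulator of GLUT4 trafficking made mostly by fat cells, also had the lower mean at 22°C. It ranged from 289 to 471 CPM (median 387) among the 22°C mice and between 393 and 513 CPM (median 424) among the 29°C mice. Replicates 2, 4, 6 and 7 at 22°C were below every mouse at 29°C, and the other 3 were among them. The fitted log2 difference of -0.26 (SE 0.13) had an unadjusted p of 0.0642 and was not called (edgeR P-adj = 0.303). It was -0.61 within the libraries with higher totals (edgeR P-adj = 0.259) and -0.12 with the adipocyte score as a covariate (edgeR P-adj = 0.697). Of the 10 adipocyte markers, 7 were lower at 22°C with none called, and the median of their log2 fold changes was -0.16. Their summed level was lowest at 26135 CPM at 22°C and at 32239 CPM at 29°C, and their part in the difference of *Trarg1* was not tested beyond that covariate.

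The glucose transporter genes themselves had small fitted differences. *Slc2a4* (ENSMUSG00000018566.15), which encodes the insulin-regulated transporter GLUT4, ranged from 269 to 444 CPM (median 330) among the 22°C mice and between 265 and 374 CPM (median 355) among the 29°C mice. In CPM, replicates 1, 3 and 7 at 22°C were above every mouse at 29°C, whereas the median at 22°C was the lower of the 2. In TPM only 22°C replicate 3, at 324, was above the highest mouse at 29°C, at 304. The mean in TPM was the lower at 22°C, at 265 ± 36.4 (SD) against 269 ± 34.9 (SD), so the direction turned with the measure. The fold of 1.07 had a 95% confidence interval from 0.87 to 1.32 (edgeR P-adj = 0.756). GLUT4 is also abundant in muscle, and 22°C replicates 1 and 7 held the most muscle marker RNA. When both were left out, an alternative chosen after seeing the data, the log2 fold change of *Slc2a4* went from 0.10 to -0.05 (edgeR P-adj = 0.901). With the muscle score as a covariate it was 0.084 (edgeR P-adj = 0.894), and within the libraries with higher totals 0.21.

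*Slc2a1* (ENSMUSG00000028645.12) encodes GLUT1, the transporter of basal glucose uptake. It ranged from 17.0 to 19.4 CPM (median 18.3) among the 22°C mice and between 12.7 and 18.1 CPM (median 16.3) among the 29°C mice. In CPM, all 7 mice at 22°C were above the median at 29°C and 5 were above every mouse there. In TPM only 22°C replicate 4 was above every mouse at 29°C, and 22°C replicates 1 and 7 were below the median there. The mean in TPM was still the higher at 22°C, at 13.7 ± 1.21 (SD) against 12.6 ± 1.90 (SD). At 29°C replicates 1, 3 and 4 were between 12.7 and 14.6 CPM, while replicates 2, 5 and 6 lay at 18.1 CPM. The log2 fold change was 0.21 (SE 0.10), a fold of 1.16 with a 95% confidence interval from 1.01 to 1.34. It had an unadjusted p of 0.0419 and did not pass over all genes (edgeR P-adj = 0.252). It was 0.15 within the libraries with higher totals (edgeR P-adj = 0.757). Counts of *Slc2a1* were the lowest of the set, between 329 and 469 per library, and *Gm12868* on the opposite strand, with 10.9% of its counts, overlaps its exons.

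*Foxo1* (ENSMUSG00000044167.7) encodes the transcription factor that AKT switches off. It ranged from 116 to 160 CPM (median 132) among the 22°C mice and between 112 and 215 CPM (median 152) among the 29°C mice. At 22°C 6 of the 7 mice were below the median at 29°C, but none was below every mouse there. The highest mouse was 29°C replicate 1, which was also the 29°C mouse with the least *Irs2*. The log2 fold change of -0.19 (SE 0.13; edgeR P-adj = 0.463) was -0.06 without 29°C replicate 1. *Gm20402* on the opposite strand overlaps its exons, with counts equal to 10.7% of those of *Foxo1*.

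**Figure D2:**
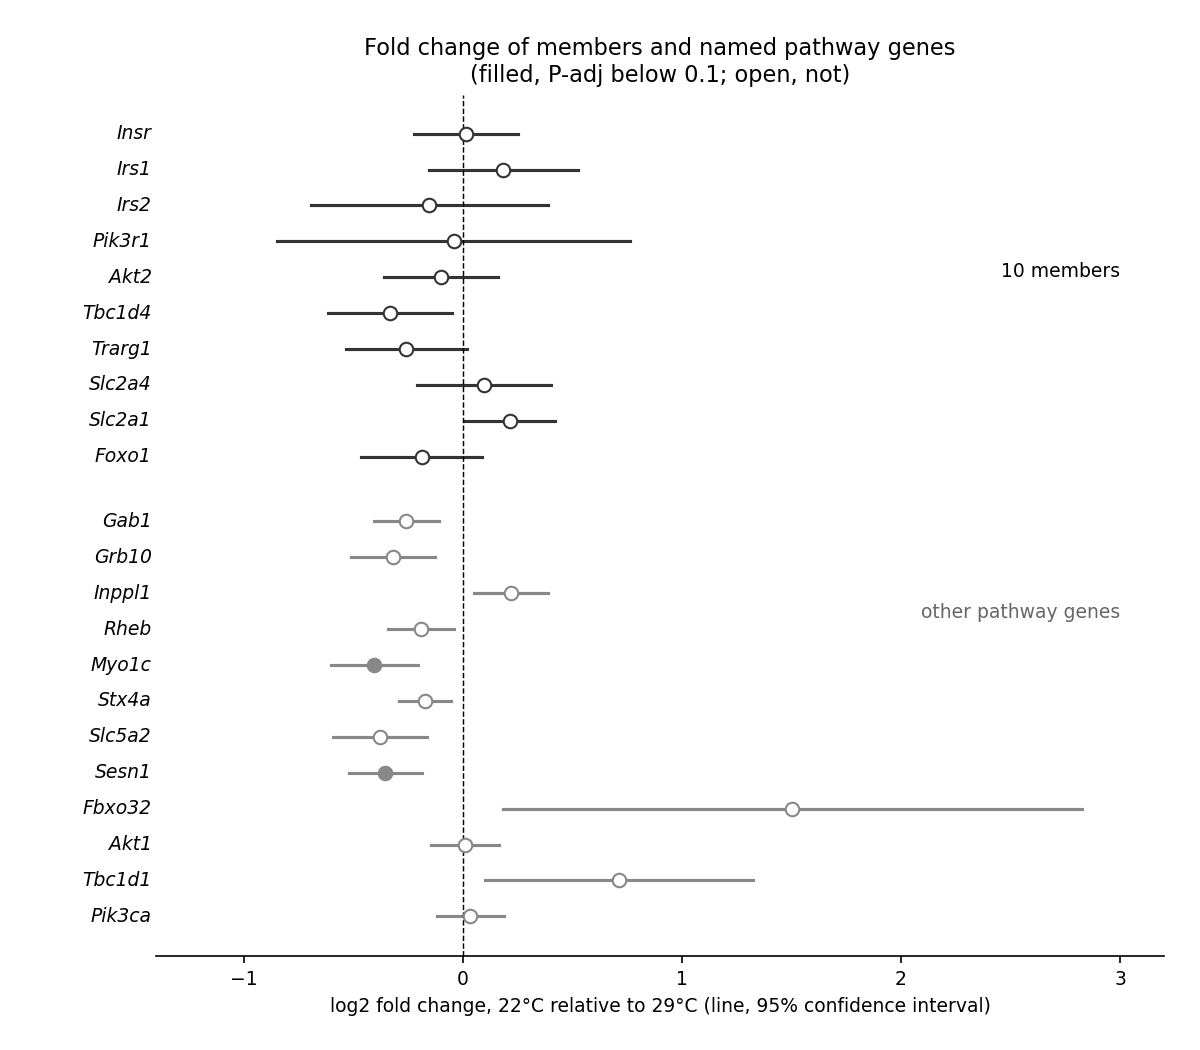
Fitted log2 fold change at 22°C relative to 29°C (x axis) with 95% confidence interval for the 10 genes (dark) and for 12 other genes of the pathway (grey). All 10 upper points are open, since none passed P-adj below 0.1, and the filled points are *Myo1c* and *Sesn1*, at -0.40 and -0.35.

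Differences between mice were not shared across the 10 genes as a block. 22°C replicate 6 had the lowest level of all 13 mice for *Insr*, *Irs2*, *Akt2* and *Trarg1* and the highest for *Irs1*. *Pik3r1* was highest in 22°C replicate 5, where the other 9 genes were between -0.19 and 0.15 from their own mean on the log2 scale. Likeness of pattern was measured as the root mean square difference between 2 genes in log2 CPM, each centred on its mean over the 13 mice. It is given as a description only, across mice that differ in library total and in tissue makeup. Of 17778 other genes, the 1 most like *Trarg1* was *Akt2*, with a difference of 0.14, beside 0.26 for the spread of *Trarg1* itself, and *Trarg1* was in turn 13th for *Akt2*. *Insr* was 169th for *Akt2* and 258th for *Irs2*. The most similar gene of *Slc2a4* was *Sdha*, a subunit gene of mitochondrial complex II, followed by *Mtus1* and *Vwa8*, at differences of 0.11 each. The genes most like *Irs1* and *Irs2* were their opposite-strand partners *Gm9747* and *9530052E02Rik*, at 0.09 and 0.19. For *Tbc1d4* it was *Eipr1* (0.14), for *Foxo1* *Klf13* (0.11), for *Insr* *Cdc73* (0.08), for *Slc2a1* *Gm43545* (0.09) and for *Pik3r1* *Nabp1* (0.29).

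**Figure D3:**
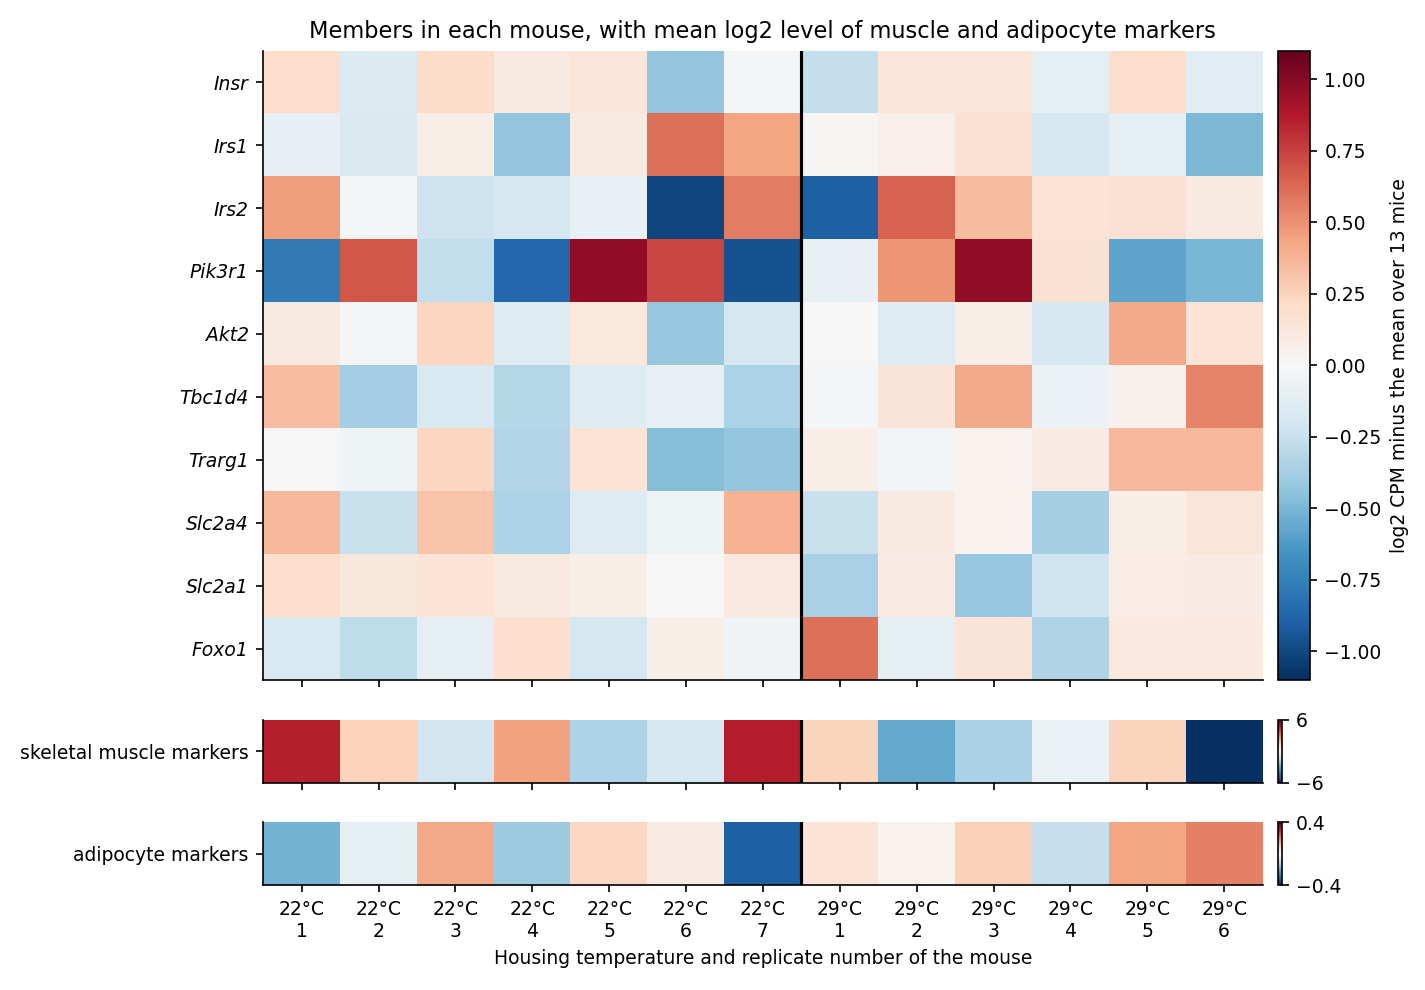
Log2 CPM of each of the 10 genes minus its mean over the 13 mice (colour, upper block), by mouse (columns, 22°C left of the line and 29°C right), above the mean log2 level of muscle and adipocyte markers, each minus its mean and on a scale of its own. *Pik3r1* and *Irs2* have the strongest colours in both groups, and muscle markers are highest in 22°C replicates 1 and 7.

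Ratios between genes with related roles were then compared within each mouse, which does not depend on the scaling of libraries. Of 6 ratios, 1 passed P-adj below 0.1 over the 6 in exact permutation tests (two-sided, 1716 splits of the mice). The ratio of *Tbc1d4* to *Tbc1d1*, its close relative that is more abundant in muscle, ranged from 1.49 to 5.76 with a median of 3.56 at 22°C and from 5.02 to 8.52 with a median of 6.40 at 29°C. The ratios of 5 of the 7 mice at 22°C were below those of every mouse at 29°C, and the mean log2 ratio was 1.82 ± 0.69 (SD, n = 7) against 2.71 ± 0.34 (SD, n = 6), a difference of -0.89 (exact permutation test, p = 0.0140, P-adj = 0.0839). *Tbc1d1* (ENSMUSG00000029174.19) itself ranged from 11.5 to 37.3 CPM among the 22°C mice and between 10.9 and 13.9 CPM among the 29°C mice, with a log2 fold change of 0.71 (SE 0.28; edgeR P-adj = 0.211). It was highest, at 34.0 and 37.3 CPM, in 22°C replicates 1 and 7, the mice with the most muscle marker RNA. With the muscle score as a covariate the log2 fold change of *Tbc1d1* was 0.19. Without both mice it was 0.18 and the difference of the ratio was -0.56 (exact permutation test, p = 0.0390, P-adj = 0.234).

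The call of that ratio also rested on other single mice. It held in 6 of the 13 tests that each left out a mouse, those without 22°C replicates 3, 5 or 6 or 29°C replicates 1, 4 or 5 (P-adj from 0.0390 to 0.0985), and was lost in the other 7, with P-adj from 0.130 to 0.167 and a difference between -0.89 and -0.68 (exact permutation tests). Within the libraries with higher totals the difference was -1.16, where 28 splits allow no p below 0.0357 (exact permutation test, p = 0.143).

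The other 5 ratios did not pass. *Trarg1* to *Slc2a4* had a median of 1.11 at 22°C and 1.40 at 29°C, and 3 of the 7 mice at 22°C were below every mouse at 29°C. The difference of its mean log2 ratio was -0.35 (exact permutation test, p = 0.0734, P-adj = 0.220), -0.43 without 22°C replicate 5 (P-adj = 0.0974), -0.81 within the libraries with higher totals and -0.19 without 22°C replicates 1 and 7. *Slc2a4* to *Slc2a1* ranged from 14.6 to 24.1 at 22°C and from 18.0 to 27.4 at 29°C (difference -0.15, exact permutation test, p = 0.309, P-adj = 0.619). *Irs1* to *Irs2* ranged from 0.91 to 4.06 at 22°C and from 0.88 to 2.51 at 29°C, with 22°C replicate 6 and 29°C replicate 1 as the highest mice. Its difference of 0.32 (exact permutation test, p = 0.420, P-adj = 0.629) was 0.08 without 22°C replicate 6, 0.54 without 29°C replicate 1 and 0.91 within the libraries with higher totals. *Akt2* to *Akt1* and *Pik3r1* to *Pik3ca* differed by -0.10 and -0.17 (exact permutation tests, P-adj of 0.664 and 0.679). The first was -0.46 within the libraries with higher totals and between -0.17 and -0.0083 with a mouse left out, the value nearest 0 being that without 22°C replicate 6. The other was between -0.35 (without 22°C replicate 6) and -0.013 (without 22°C replicate 1).

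**Figure D4:**
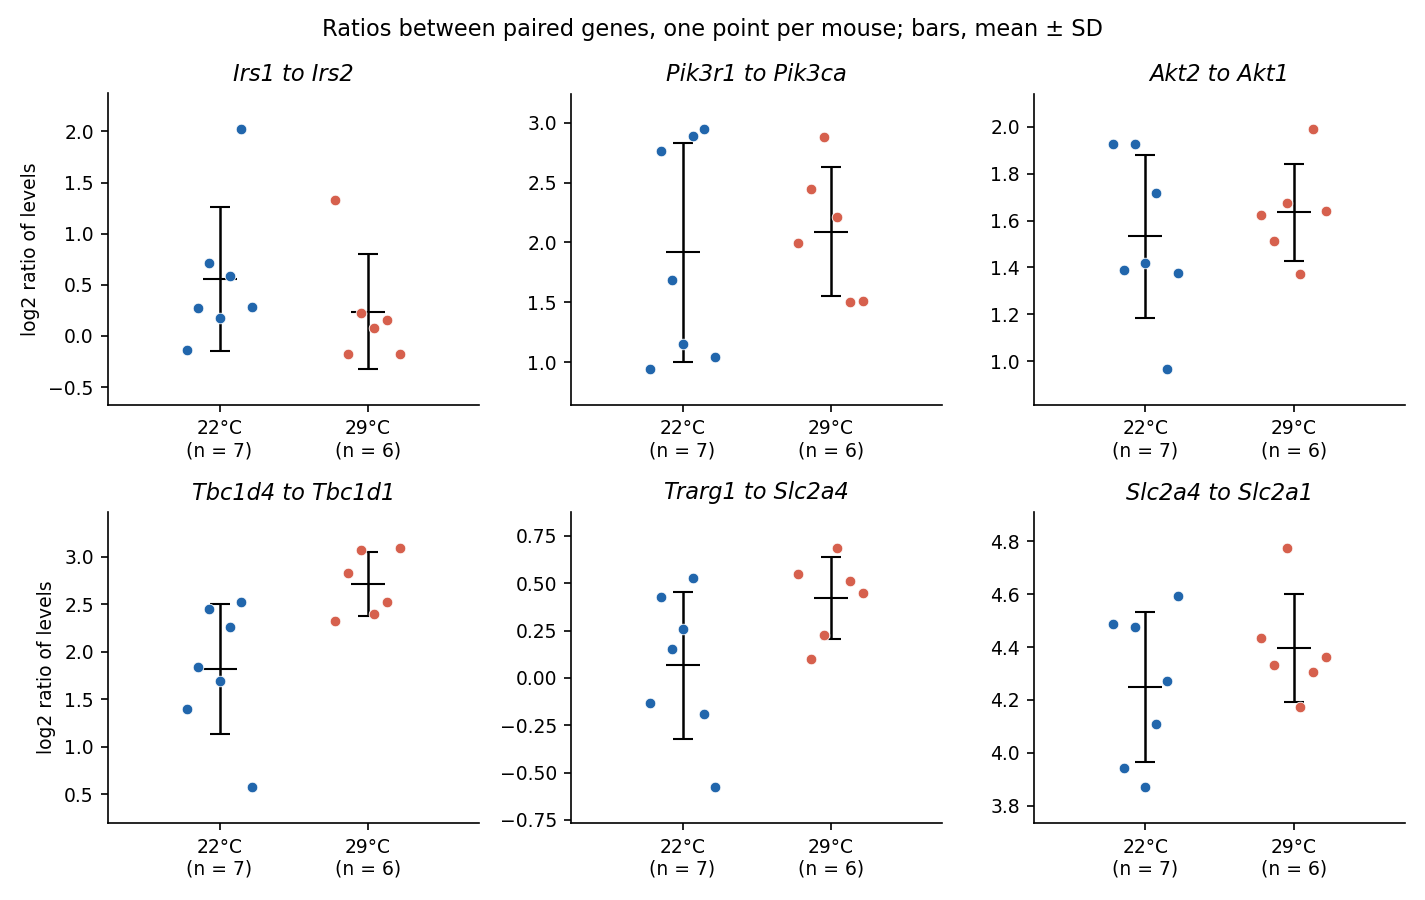
Log2 ratio of the levels of paired genes (y axis, each panel on its own scale) in each mouse at 22°C (blue, n = 7) and 29°C (red, n = 6), with bars for mean ± SD. The *Tbc1d4* to *Tbc1d1* ratio lies lower at 22°C, with 5 of 7 mice below every mouse at 29°C.

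The wider pathway was taken from 5 lists of 113 other genes, of which 112 were in the count table and 108 were tested. *Igfbp1* was not matched, and *Slc2a2*, *Slc5a1*, *Hkdc1* and *G6pc* were too low, with at most 11 counts in a library. Of the 108 genes, 51 had a log2 fold change above 0 and 57 below, with the median at -0.02. At P-adj below 0.1 the edgeR test called 2, or 1.85%, against 1.94% of all genes tested, so the share of called genes was that of the background. Both were lower at 22°C, where 1.21% of all genes were called lower. At an unadjusted p below 0.05 there were 18 (8 higher and 10 lower), or 16.7%, against 18.5% of all genes.

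*Myo1c* (ENSMUSG00000017774.20) encodes a myosin motor that helps GLUT4 vesicles reach the membrane. Of the 108 genes it was the 1 whose groups did not overlap, beside 1.24% of all genes tested. It ranged from 367 to 523 CPM (median 442) among the 22°C mice and between 527 and 634 CPM (median 573) among the 29°C mice. The highest mouse at 22°C was just below the lowest at 29°C, and the log2 fold change was -0.40 (SE 0.09; edgeR P-adj = 0.0763). It was -0.29 with the muscle score as a covariate (edgeR P-adj = 0.201) and -0.31 with the adipocyte score (edgeR P-adj = 0.134). The call held without 22°C replicates 2, 3 or 6 (P-adj from 0.0607 to 0.0881, edgeR) and was lost when any 1 of the other 10 mice was left out (P-adj from 0.105 to 0.173, edgeR), while the log2 fold change stayed between -0.45 and -0.37. Within the libraries with higher totals it was -0.46 (edgeR P-adj = 0.265). The other 24 trafficking genes were not called, with a median over the 25 of -0.03. The next smallest p was that of *Stx4a* (ENSMUSG00000030805.15), the plasma membrane syntaxin on which GLUT4 vesicles dock, at 50.7 ± 3.50 CPM and 57.1 ± 3.15 CPM (log2 fold change -0.17, SE 0.06; edgeR P-adj = 0.156; 0.0909 without 22°C replicate 6). Its counts are uncertain if strand was not used in the counting.

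*Sesn1* (ENSMUSG00000038332.14), a FOXO target whose protein restrains the growth kinase complex mTORC1, was the other called gene. It ranged from 29.1 to 34.0 CPM (median 31.2) among the 22°C mice and between 31.7 and 46.1 CPM (median 41.2) among the 29°C mice. At 29°C only replicate 6, at 31.7 CPM, lay within the range at 22°C. The log2 fold change was -0.35 (SE 0.08; edgeR P-adj = 0.0714), and -0.41 without 29°C replicate 6 (edgeR P-adj = 0.0190). It passed in 5 of the 13 fits that left out a mouse, those without 22°C replicates 1, 2, 3 or 6 (P-adj from 0.0627 to 0.0999, edgeR) or 29°C replicate 6, and P-adj was between 0.101 and 0.170 in the other 8 (edgeR). Within the libraries with higher totals it was -0.33 (edgeR P-adj = 0.366). Of the 16 tested FOXO1 and insulin target genes, 7 were higher and 9 were lower, and *Sesn1* was the 1 called. These genes varied widely between mice of a group, with 8 of 16 in the top 20% of all genes by within-group SD. *Fbxo32*, a ubiquitin ligase gene of wasting muscle, had a fold of 2.84 (edgeR P-adj = 0.219). It was highest in 22°C replicates 1 and 7, at 187 and 82.3 CPM, and its log2 fold change was 0.18 without both and 0.0030 with the muscle score as a covariate. *Gm15943* on the opposite strand, with 11.7% of its counts, overlaps its exons.

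Among 21 receptor and adaptor genes, 14 were lower and 7 higher at 22°C, none was called, and their log2 fold changes had the median -0.10. Of the 21, 5 were at an unadjusted p below 0.05, beside 18.5% of all genes tested. *Gab1* (ENSMUSG00000031714.10), a docking protein gene, averaged 37.8 ± 3.26 CPM in the 22°C mice against 45.2 ± 3.72 CPM, and 5 of 7 mice at 22°C were below every mouse at 29°C (log2 fold change -0.26, SE 0.07; edgeR P-adj = 0.110; 0.0898 without 22°C replicate 7). *Grb10* (ENSMUSG00000020176.18), whose protein binds and inhibits the insulin receptor, was 87.8 ± 11.4 CPM and 110 ± 9.27 CPM, with 6 of 7 mice below every mouse at 29°C (log2 fold change -0.32, SE 0.09; edgeR P-adj = 0.118; 0.0627 without 22°C replicate 6). Exons of *Gab1* overlap *Gm31105* on the opposite strand, with 8.01% of its counts. DESeq2 called both genes, with P-adj of 0.0228 and 0.0247, beside a share of 10.2% of all genes.

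The 29 PI3K, AKT and mTOR genes had 18 higher and 11 lower members, none called, with a median of 0.04. Of the 29, 3 were at an unadjusted p below 0.05, beside 18.5% of all genes tested. *Inppl1*, which encodes a phosphatase of the lipid product of PI3K, had a log2 fold change of 0.22 (SE 0.08; edgeR P-adj = 0.182), and *Rheb*, the GTPase that activates mTORC1, of -0.19 (SE 0.07; edgeR P-adj = 0.187). *Gm10602* on the opposite strand, with 44.9% of the counts of *Inppl1*, overlaps its exons. In the sugar transporter and hexose phosphorylation list, 17 of 20 genes were tested and none was called, with a median of -0.04. Of the 17, 4 were at an unadjusted p below 0.05, beside the same 18.5%. *Slc5a2*, the sodium-glucose cotransporter of the kidney, was 11.1 ± 1.29 CPM and 14.5 ± 1.66 CPM (log2 fold change -0.38, SE 0.10; edgeR P-adj = 0.106; 0.0829 without 29°C replicate 1 and 0.0934 without 22°C replicate 6). Its exons overlap those of *BC017158* on the opposite strand, whose counts were 258% of its own. Reads of the 2 genes cannot be told apart if strand was not used in the counting.

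**Figure D5:**
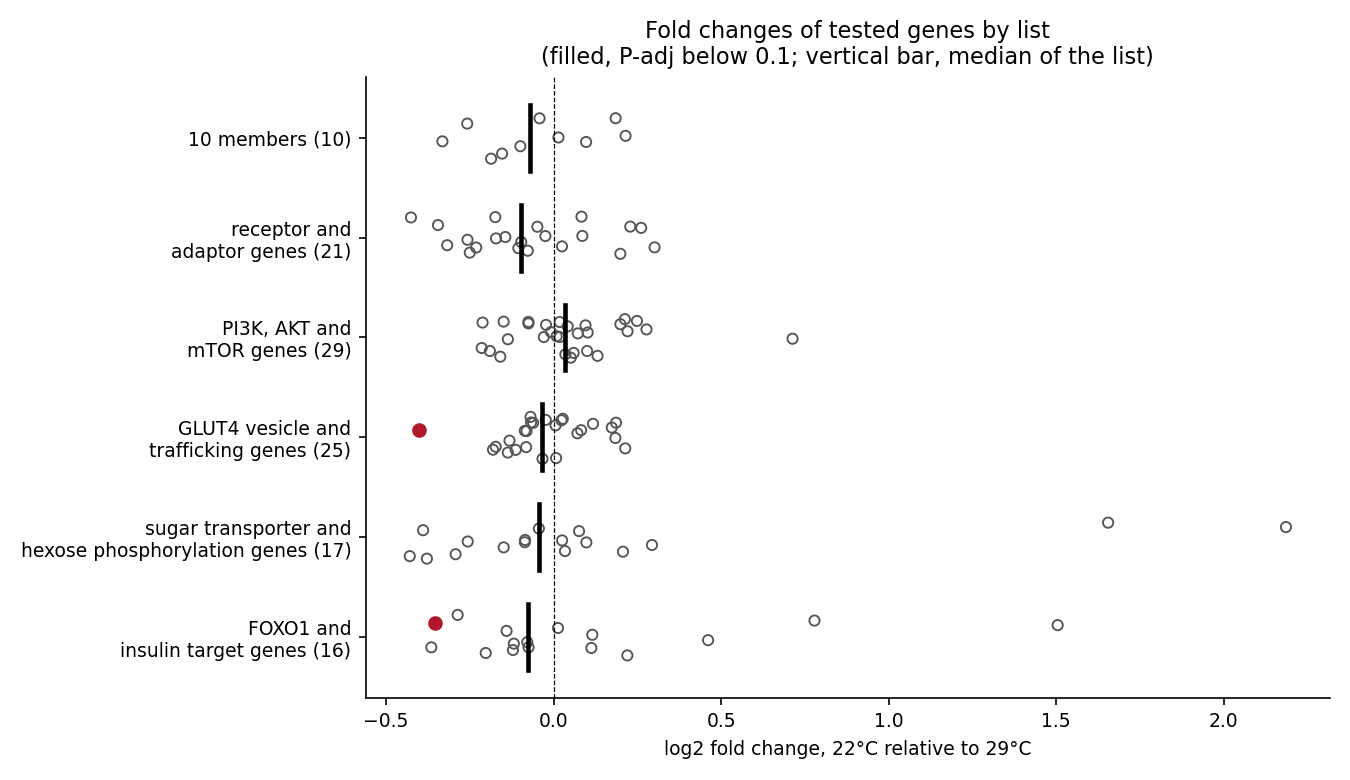
Log2 fold change at 22°C relative to 29°C (x axis) of each tested gene in the set of 10 and in the 5 wider lists (rows, number tested in brackets), with a vertical bar at the median of each list. The medians lie between -0.10 and 0.04, and the 2 filled points that passed P-adj below 0.1 are *Myo1c* and *Sesn1*.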

How the data were processed

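RNA of gluteal WAT from 13 mice was grouped by the housing temperature in the labels. The authors aligned reads with STAR 2.7.5a, counted them with featureCounts and deposited raw counts per gene; the submitters' processing notes name GRCm39. The authors also deposited regularized log2 values from DESeq2, used here in 1 alternative. Annotation and strand setting are not given in the sources used here. Symbols came from identifiers without version (34006 genes), and exon lengths for TPM from GENCODE M21, which is of another build, so no coordinates are given.

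Counts were tested with edgeR 4.0.16 in R 4.3.3 (TMM, filterByExpr, quasi-likelihood F test, Benjamini-Hochberg over 17779 genes, P-adj below 0.1). SEs were derived from the fold changes and their F statistics. Ratios use log2 CPM with a prior count of 2. DESeq2 1.42.0 and limma 3.58.1 served in alternatives. The code was tested on simulated counts. The lowest chi-square per gene over 78 pairs of libraries was 17.1, so no library stands under 2 labels. Whether mice shared a litter is not given. The p-values weigh the difference between groups against the spread between these mice, taken as independent.

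The 10 genes and all lists were chosen with earlier results of these data known. Beside the 10, the text names every called gene of a wider list or, where fewer than 2 were called, the 2 with the smallest p, the nearest genes by pattern and the partners in ratios. A gene that this rule also gave is not reported here. Genes named in the closing section fall outside this rule. Alternatives were another tool, size factors, filters, a robust fit, the replicate number as a block, each mouse left out, muscle and adipocyte scores, library totals, limma on the deposited log2 values and a threshold of 0.05.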

Additional observations from a re-analysis of the deposited data

Results flagged for a closer look

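In the 32 groups of values examined, the 10 genes and 6 ratios at each temperature, 3 held a mouse whose gap to the nearest other mouse was larger than Dixon's 95% critical value allows. Chance alone puts about 1 in 20 groups past it. *Tbc1d4* was at 89.7 CPM in 22°C replicate 1, where the next mouse was at 67.0 CPM, a gap of 0.648 of the range against a critical value of 0.568. In TPM this mouse was at 25.4, the next at 24.1 and the lowest at 16.7, so it stood apart in CPM and not in TPM. The log2 ratio of *Irs1* to *Irs2* was 2.02 in 22°C replicate 6, with the next mouse at 0.71, a gap of 0.606 of the range. The same log2 ratio was 1.32 in 29°C replicate 1, with the next mouse at 0.23, a gap of 0.730 of the range against a critical value of 0.625.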

How the results depend on the processing

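The count of 0 called genes among the 10 held in all 26 alternatives. The number called among all genes was 345, and 1676 with DESeq2, 42 without a filter on low counts, 214 with the replicate block, 43 with the muscle score, 143 with the adipocyte score, 4 when the cluster of totals was a covariate, 8 in the libraries with higher totals, 40 at P-adj below 0.05, and 32 (without 29°C replicate 3) to 652 (without 22°C replicate 6) with a mouse left out. Wider genes called were 2, and 9 with DESeq2, 1 with the muscle score, 0 without a filter, with the cluster of totals, in the libraries with higher totals and at 0.05, and 0 to 6 with a mouse left out. Deviations of mice with the same replicate number had correlations from 0.051 to 0.513. For replicates 1, 2, 4 and 6 the 29°C mouse most like the 22°C mouse had the same number, and for replicates 3 and 5 it did not. The labels do not name the numbers as pairs, so the main fit has no block and the replicate block is an alternative. With the replicate block 2 were called, *Myo1c* and *Slc5a2*, and *Sesn1* was not (edgeR P-adj = 0.123). Direction turned for *Insr* (-0.0093 with the muscle score, -0.21 with the cluster of totals, -0.22 in the libraries with higher totals, -0.018 without 22°C replicates 1 and 7, and -0.033 to 0.077 with a mouse left out), *Pik3r1* (0.27 with the muscle score, 0.14 with the adipocyte score, 0.22 without 22°C replicates 1 and 7, and -0.25 to 0.19), *Akt2* (0.013 with the adipocyte score), *Slc2a4* (-0.047 without both mice), *Pik3ca* (-0.089, -0.10 and -0.020 with the cluster, in the higher totals and without both mice, and -0.012 to 0.071) and *Akt1* (-0.025 to 0.048). None of these is called and the cause was not tested. The *Tbc1d4* to *Tbc1d1* difference was -1.16 in the libraries with higher totals, -0.68 with the replicate block, where the smallest p that 6 pairs allow is 0.0312, -0.56 without 22°C replicates 1 and 7, and -1.01 to -0.68 with a mouse left out. The *Slc2a4* to *Slc2a1* difference was 0.035 in the libraries with higher totals, the *Pik3r1* to *Pik3ca* difference was 0.19 without 22°C replicates 1 and 7, and the *Trarg1* to *Slc2a4* difference was -0.43 to -0.25 with a mouse left out. Leaving out 22°C replicates 1 and 7 was chosen after seeing the data. The spread between mice was wide for *Pik3r1* and *Irs2*, and 2 mice at 22°C limit every value at like totals.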

Other observations

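The 2 mice with the least *Irs2*, 22°C replicate 6 at 47.1 CPM and 29°C replicate 1 at 50.7 CPM, were looked at across the pathway after their values were seen. *Insr* was also lowest in these 2 mice, at 106 and 120 CPM. Among the 16 tested FOXO1 and insulin target genes, 2 (12.5%) were lowest in the same 2 mice, against 2.13% of all genes tested and 5 of the 108 genes (4.63%) of all wider lists, the others being *Dennd4c*, *Rptor* and *Tsc1*. The share rests on 2 genes and on mice picked by *Irs2*. *Pck1*, which encodes the phosphoenolpyruvate carboxykinase that insulin lowers, was at 987 and 827 CPM in these mice and between 1051 and 2286 CPM in the other 11. *Ccng2*, a cyclin gene that FOXO factors activate, was at 27.8 and 29.6 CPM and between 30.3 and 53.1 CPM in the other 11. *Sesn1*, of the same list, went the other way, at 34.0 and 46.1 CPM, the highest level of its group in each of these mice. The 2 mice are 1 of each temperature, and the pattern was not tested.

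*Fasn*, the fatty acid synthase gene that insulin raises, ranged from 2853 to 18402 CPM among the 22°C mice and between 1175 and 14944 CPM among the 29°C mice, a spread within groups above that of 96.3% of all genes tested. The fitted log2 difference was 0.46 (SE 0.56, edgeR P-adj = 0.708). *Fasn* was highest in 22°C replicate 1, 1 of the 2 mice with the most muscle marker RNA. In CPM this mouse also had the most *Tbc1d4*, *Slc2a1* and *Fbxo32* of the mice at 22°C. In TPM its *Slc2a1* was the lowest at 22°C, at 12.1, and its *Tbc1d4*, at 25.4, was close to the 24.1 of replicate 6. In 22°C replicate 7, the other of these 2 mice, *Fasn* was at 6792 CPM, *Tbc1d4* at 55.6 CPM, *Slc2a1* at 18.3 CPM and *Fbxo32* at 82.3 CPM. A link of *Fasn* with muscle marker RNA was not tested.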
